A study of Mus musculus with 9 samples.

Results

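The small leucine-rich proteoglycans (SLRPs) are secreted matrix proteins built around a core of leucine-rich repeats, and 10 genes of the family, Bgn, Dcn, Aspn, Lum, Fmod, Prelp, Omd, Ogn, Nepn and Podn, were followed here out of 54532 genes in the deposited tables. The genes were taken by their gene names. The family was singled out because Ogn, Omd and Nepn stood among the largest changes between differentiated and undifferentiated cells, so the values of that comparison describe how the genes were chosen and carry no test. Likewise no p is given for Ogn, Omd and Nepn in any comparison, and p values are given for the other 7 genes only where the Lysfree libraries enter. All 3 comparisons share libraries with each other, and the tests with Lysfree are therefore not independent of the choice.

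3T3-L1 is a mouse preadipocyte line, a fibroblast-like line that turns into fat-storing adipocytes when given hormones. Poly A enriched RNA was sequenced from 3 groups of 3 libraries. The Undifferentiated cells had been grown in high glucose DMEM with bovine calf serum and kept confluent for 3 days. The Differentiated cells were then moved to a medium with 1 μM dexamethasone, a glucocorticoid, 0.5 mM IBMX, an inhibitor of phosphodiesterases, 1 μM rosiglitazone, an agonist of PPAR gamma, and 10 μg/mL insulin, and the Lysfree cells received the same medium with no lysine added. Per the methods of the study, this medium was built on arginine- and lysine-free DMEM with fetal bovine serum. Arginine was added back for both groups, and lysine only for the Differentiated cells. In these groups RNA was taken after the differentiation period. Undifferentiated and the other groups thus also differed in base medium and serum, and the lysine-free medium still held traces of lysine. Neither the labels nor the methods say at which time the Undifferentiated cells were collected, and nothing says that replicates came from separate cultures, so p values measure only the spread between these samples, which may be technical.

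SLRPs bind collagen fibrils and set how thick the fibrils grow and how they are spaced. Many also hold growth factors of the TGF-beta family in the matrix or bind cell surface receptors, and most carry chondroitin, dermatan or keratan sulfate chains. Preadipocytes are fibroblast-like cells that lay down a collagen-rich matrix, and this matrix is remodelled as the cells round up and fill with lipid.

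Total counts on genes ranged from 15880144 to 21806693 per library. Genes with at most 3 counts in each library of a group are said to be at the floor, which stood at 0.138 to 0.189 CPM (counts scaled by the library total). Levels are given as the deposited FPKM, that is fragments per kilobase of gene length scaled to the library total and multiplied by a constant of each library. That constant differed between the groups and is given with the processing. Throughout, n is 3 per group, with the SD after each mean. Fold changes come from the counts and are fitted values on the log2 scale with their standard error (SE), and a gene was called where it changed at least 2-fold with a p under 0.05 after Benjamini-Hochberg adjustment over all genes tested. Lysfree 1 stood apart from the other Lysfree libraries, since its counts differed from theirs by 43.3 and 44.4 chi-square units per degree of freedom, whereas all other pairs within a group gave 2.76 to 12.3. In bulk libraries, fewer cells of a type and less RNA per cell cannot be told apart. The 8 fibroblast and preadipocyte markers summed to 2830 to 3053 FPKM in the Undifferentiated, 827 to 828 in the Differentiated and 1144 to 1184 in the Lysfree libraries, with Cd34 at the floor in Differentiated alone among the groups. The 8 adipocyte markers, among them Adipoq, Fabp4 and Plin1, summed to 298 to 378, 6469 to 6782 and 234 to 311 FPKM in the same order, with Lep at the floor in Lysfree.

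Aspn, Omd and Ogn lie in a row on the plus strand of chromosome 13 (GRCm38), Aspn (ENSMUSG00000021388) at chr13:49544443-49567565, Omd (ENSMUSG00000048368) at chr13:49582462-49592822 and Ogn (ENSMUSG00000021390) at chr13:49608046-49624501. All 3 fall inside the span of Cenpp, a kinetochore gene on the minus strand (chr13:49464023-49652785). Exons of Omd and Ogn shared no base with exons of Cenpp, and those of Aspn shared 7. Because these neighbours and Nepn carry the changes described below, the 250 bases before their RefSeq transcription starts (GRCm38.p6) are shown 5′ to 3′, at chr13:49544193-49544442 for Aspn, chr13:49582212-49582461 for Omd, chr13:49607765-49608014 for Ogn and chr10:52391358-52391607 for Nepn, all on the plus strand. None of these stretches overlapped an annotated exon, and that of Nepn lies inside the deposited span of the gene, since the RefSeq start is that of a shorter transcript. Capitals mark the motifs found.
Aspn: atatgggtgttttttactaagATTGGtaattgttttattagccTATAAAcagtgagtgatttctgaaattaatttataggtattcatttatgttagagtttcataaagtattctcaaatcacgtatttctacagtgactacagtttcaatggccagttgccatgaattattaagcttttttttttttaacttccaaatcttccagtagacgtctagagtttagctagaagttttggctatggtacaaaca
Omd: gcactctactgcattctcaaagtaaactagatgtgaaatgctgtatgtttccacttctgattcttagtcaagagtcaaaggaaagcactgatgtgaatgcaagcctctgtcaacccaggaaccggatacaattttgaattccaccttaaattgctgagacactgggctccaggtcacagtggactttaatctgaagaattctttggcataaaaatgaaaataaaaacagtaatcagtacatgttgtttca
Ogn: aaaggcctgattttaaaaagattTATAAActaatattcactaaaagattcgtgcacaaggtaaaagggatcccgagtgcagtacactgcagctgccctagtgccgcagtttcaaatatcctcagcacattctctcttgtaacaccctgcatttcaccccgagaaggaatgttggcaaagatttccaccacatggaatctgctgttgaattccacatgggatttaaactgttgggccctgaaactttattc
Nepn: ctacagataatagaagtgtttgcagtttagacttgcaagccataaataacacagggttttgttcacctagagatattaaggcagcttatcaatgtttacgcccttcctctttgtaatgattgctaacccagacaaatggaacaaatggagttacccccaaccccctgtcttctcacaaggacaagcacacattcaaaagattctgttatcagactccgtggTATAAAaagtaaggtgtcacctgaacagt

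The stretches were searched for TATAAA on the gene strand and, on both strands, for the glucocorticoid receptor half-site AGAACA, the cAMP response element TGACGTCA, the AP-1 site TGANTCA, the C/EBP site TTNNGCAA, the direct repeat bound by PPAR and RXR, and CCAAT. Nepn held TATAAA 29 to 24 bases before its start, which is where a TATA box usually lies. Of 32536 RefSeq promoters of the same length, 7.55% held TATAAA anywhere and 1.78% held it with its first base 35 to 24 bases before the start, a range set after the Nepn match was seen. The TATAAA of Ogn (227 to 222 bases before the start) and of Aspn (207 to 202) lay far upstream, and Aspn also held CCAAT, read as ATTGG on the gene strand, a motif found in 33.8% of promoters. No listed motif was in the Omd stretch. The glucocorticoid receptor half-site occurs in 16.0% of promoters, the cAMP response element in 1.56%, the AP-1 site in 6.73%, the C/EBP site in 9.57% and the direct repeat in 0.0338%, and none of them was in these 4 stretches. GC content was 30.0% for Aspn, 38.4% for Omd, 42.0% for Ogn and 40.4% for Nepn, against a median of 52.4% over all promoters. The table of promoters had an entry for 8 of the 10 genes, without Dcn and Lum.

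The other genes were spread over 4 more chromosomes. Dcn (ENSMUSG00000019929, chr10:97479609-97518143) and Lum (ENSMUSG00000036446, chr10:97565128-97572703) are neighbours on the plus strand of chromosome 10, followed by the family members Kera and Epyc, and Nepn (ENSMUSG00000038624, chr10:52388972-52404625) lies elsewhere on that chromosome. Fmod (ENSMUSG00000041559, chr1:134037254-134048277) and Prelp (ENSMUSG00000041577, chr1:133910304-133921414) sit close together on chromosome 1 on opposite strands. Bgn (ENSMUSG00000031375, chrX:73483602-73495933) is X-linked, and Podn (ENSMUSG00000028600, chr4:108014791-108096445) lies on chromosome 4. The span of Podn overlaps that of Scp2 on the same strand, and their exons shared no base. Exons of Prelp shared 350 bases with the antisense gene Gm15851, which had at most 5 counts in any library. The strand setting of the counting is not given in the sources used here, so reads of such overlaps could go to either gene.

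In undifferentiated cells the family was dominated by Bgn, Aspn and Ogn. The summed level of the 10 genes was 1506 ± 40.7 FPKM in Undifferentiated, 341 ± 6.56 in Differentiated and 755 ± 152 in Lysfree, with no overlap between the groups. Bgn made up 43.0% of this sum in Undifferentiated, 62.7% in Differentiated and 67.0% in Lysfree, whereas the share of Aspn was 28.3%, 27.2% and 22.5%. Ogn held 22.1%, 0.529% and 6.71% of the sum. Dcn gave 4.28%, 0.964% and 1.21%, and Prelp gave 1.39%, 7.13% and 2.31%. In Lysfree the sum ranged from 666 to 931 FPKM, the highest value being that of Lysfree 1.

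**Figure D1:**
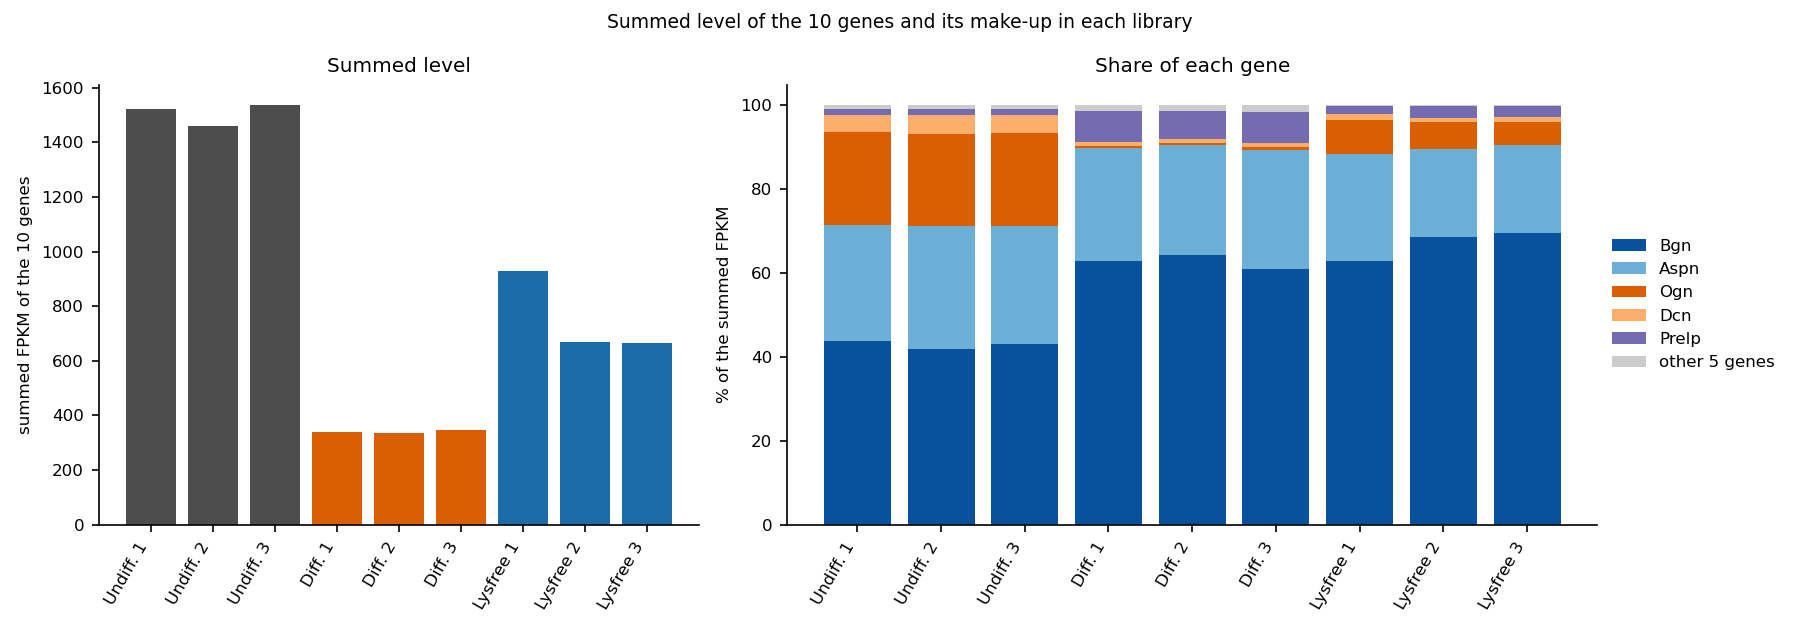
Left, summed FPKM of the 10 SLRP genes in each of the 9 libraries (linear axis from 0); right, the share of each gene in that sum, in %. The Bgn share is 43.0% in Undifferentiated, 62.7% in Differentiated and 67.0% in Lysfree, and the Ogn share is 22.1% in Undifferentiated, 0.529% in Differentiated and 6.71% in Lysfree.

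Ordered by level, the 10 genes ran Bgn, Aspn, Ogn, Dcn, Prelp, Lum, Fmod, Omd, Podn and Nepn in Undifferentiated, and the ranges of neighbours in this order did not overlap. In Differentiated the order was Bgn, Aspn, Prelp, Dcn, Nepn, Ogn, Lum, Podn, Fmod and Omd. There the ranges of Dcn and Nepn overlapped, as did those of Podn and Fmod. In Lysfree the order was Bgn, Aspn, Ogn, Prelp, Dcn, Omd, Lum, Podn, Fmod and Nepn, where Lum overlapped Podn and Fmod overlapped Nepn. Ogn thus moved from rank 3 to rank 6 and back to rank 3, and Nepn stood at rank 10, rank 5 and rank 10.

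**Figure D2:**
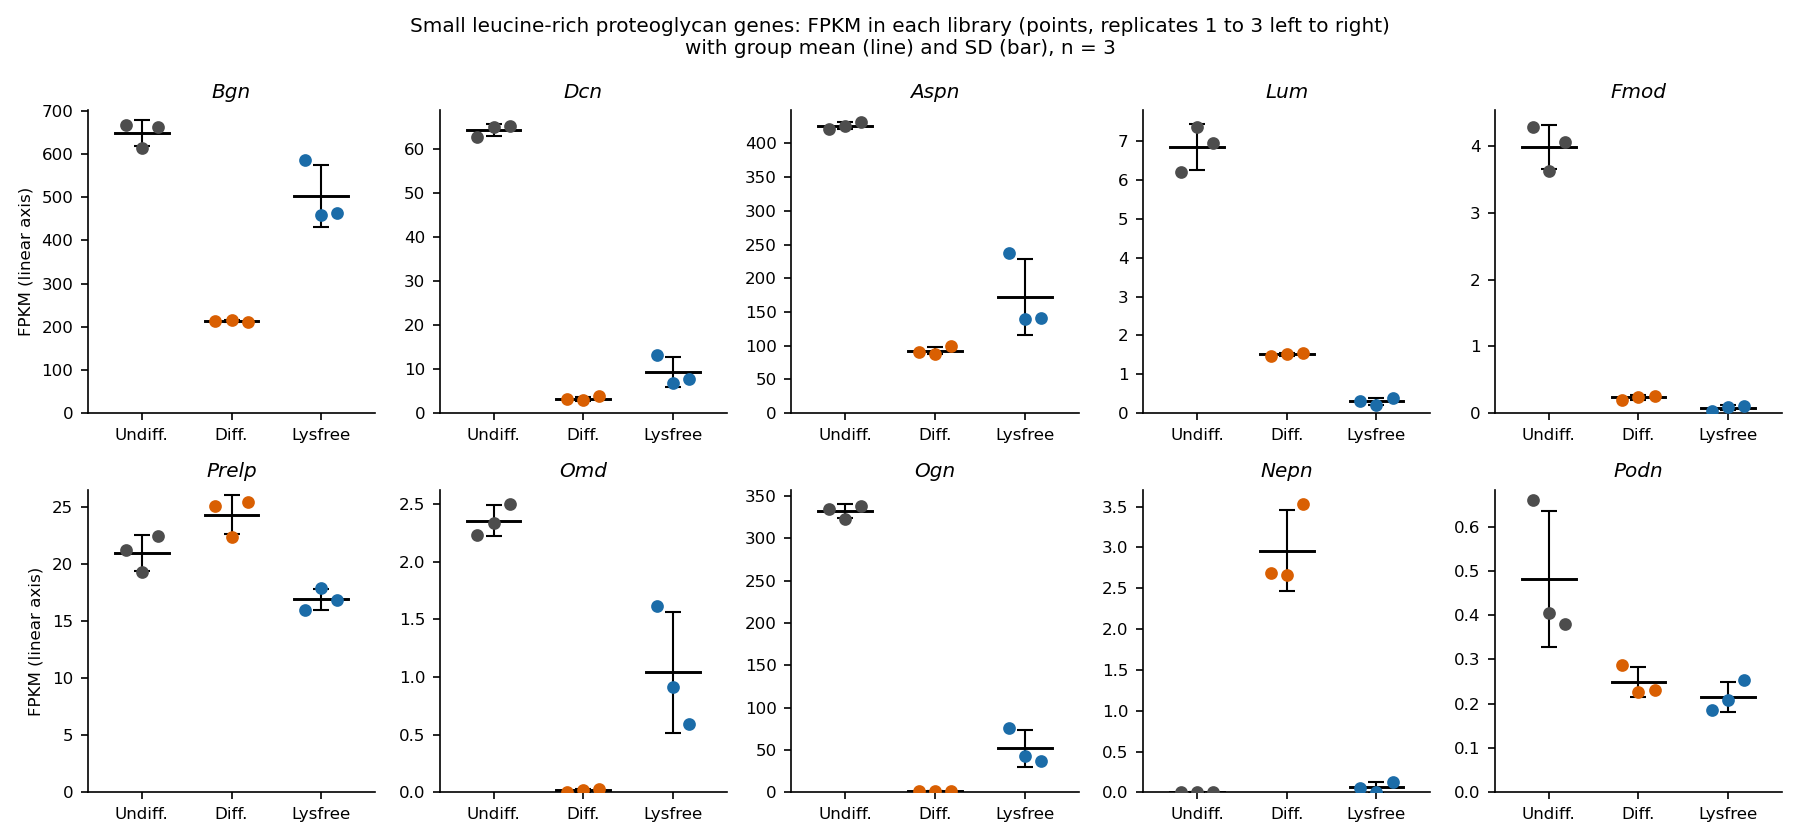
FPKM of each SLRP gene (one panel per gene, linear axes from 0) in the 3 Undifferentiated, 3 Differentiated and 3 Lysfree libraries, with points for libraries in order of replicate number, lines for group means and bars for the SD. Dcn, Aspn, Bgn, Ogn and Omd lie lowest in Differentiated, Lum and Fmod lie lowest in Lysfree, and Nepn stands above the floor in every Differentiated library.

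The class I genes Bgn, Dcn and Aspn were highest in undifferentiated cells, lowest in differentiated cells and between them without lysine. Bgn encodes biglycan, which carries chondroitin or dermatan sulfate and, once released, is bound by Toll-like receptors. Its FPKM was 667, 613 and 663 in Undifferentiated 1 to 3, 213, 216 and 212 in Differentiated 1 to 3, and 585, 458 and 463 in Lysfree 1 to 3. The Lysfree libraries lay above every Differentiated library and below every Undifferentiated library. The mean in Differentiated was 33.0% of the Undifferentiated mean and that in Lysfree 77.5%. The log2 fold change of Bgn was -1.63 (SE 0.04) for Differentiated vs Undifferentiated. With lysine left out it was -0.32 (SE 0.09, edgeR adjusted p = 0.0047) against Undifferentiated, which is under a 2-fold change, and 1.30 (SE 0.08, edgeR adjusted p = 5.6e-11) against Differentiated.

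Dcn encodes decorin, which binds collagen type I and TGF-beta and dampens signalling of the EGF and MET receptors. Dcn stood at 62.9, 65.1 and 65.3 FPKM in Undifferentiated, 3.16, 2.93 and 3.78 in Differentiated, and 13.2, 6.92 and 7.82 in Lysfree. No library of a group overlapped another group, and the Lysfree level remained far nearer to Differentiated than to Undifferentiated, at 14.5% of the Undifferentiated mean compared with 5.11%. The log2 fold change was -4.32 (SE 0.07) for Differentiated vs Undifferentiated. It was -2.74 (SE 0.15, edgeR adjusted p = 1.6e-16) for Lysfree vs Undifferentiated and 1.57 (SE 0.18, edgeR adjusted p = 2.9e-07) for Lysfree vs Differentiated.

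Aspn encodes asporin, which has an aspartate-rich stretch in place of the usual sugar chain sites and binds TGF-beta and collagen. Its FPKM was 422, 426 and 432 in Undifferentiated, 91.2, 88.0 and 99.1 in Differentiated, and 238, 140 and 141 in Lysfree. All Lysfree libraries stood between the other groups. The log2 fold change was -2.23 (SE 0.05) for Differentiated vs Undifferentiated and -1.26 (SE 0.13, edgeR adjusted p = 7.6e-10) for Lysfree vs Undifferentiated. For Lysfree vs Differentiated it was 0.96 (SE 0.14, edgeR adjusted p = 1.0e-05), just under the fold threshold, so Aspn was not called there. The call was made without Differentiated 3, Lysfree 2 or Lysfree 3, at 1.01, 1.08 and 1.08, and with library sizes alone, at 1.03, whereas without Lysfree 1 the log2 fold change was 0.64.

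Among the class II genes, Lum and Fmod took another order, with their lowest levels in the lysine-free medium. Lum encodes lumican, a keratan sulfate proteoglycan that keeps collagen fibrils thin. Lum measured 6.21, 7.38 and 6.96 FPKM in Undifferentiated, 1.48, 1.51 and 1.54 in Differentiated, and 0.302, 0.214 and 0.400 in Lysfree. Each group was clear of the others, and the means were 22.1% and 4.46% of the Undifferentiated mean. Lum had a log2 fold change of -2.20 (SE 0.14) for Differentiated vs Undifferentiated. It fell by 4.43 on the log2 scale (SE 0.23, edgeR adjusted p = 7.4e-17) for Lysfree vs Undifferentiated and by 2.23 (SE 0.29, edgeR adjusted p = 2.0e-06) for Lysfree vs Differentiated, although Lum and Dcn are neighbours on chromosome 10.

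Fmod encodes fibromodulin, which competes with lumican for a site on collagen and guides its crosslinking. Fmod counts were 302, 263 and 215 in Undifferentiated, 10, 15 and 14 in Differentiated, and 2, 6 and 7 in Lysfree, that is 4.29, 3.63 and 4.06, then 0.196, 0.244 and 0.262, then 0.0344, 0.0952 and 0.109 FPKM. The groups did not overlap, but both media left Fmod close to the floor. The log2 fold change was -4.10 (SE 0.21) for Differentiated vs Undifferentiated and -5.55 (SE 0.28, edgeR adjusted p = 5.8e-17) for Lysfree vs Undifferentiated. For Lysfree vs Differentiated it was -1.45 (SE 0.53, edgeR adjusted p = 0.035), a call that rests on few counts. It was lost without Lysfree 1 (edgeR adjusted p = 0.089), Differentiated 2 (0.098) or Differentiated 3 (0.098), and with DESeq2 (adjusted p = 0.068) or the replicate number as a block (edgeR adjusted p = 0.058).

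Prelp stayed within a 2-fold change in all 3 comparisons. It encodes a class II protein with a basic, heparin-binding end that links collagen to the perlecan of basement membranes. Prelp stood at 21.2, 19.3 and 22.4 FPKM in Undifferentiated, 25.1, 22.3 and 25.5 in Differentiated, and 16.0, 17.9 and 16.8 in Lysfree. The Undifferentiated and Differentiated libraries overlapped, while every Lysfree library lay below both. The log2 fold change was 0.19 (SE 0.06) for Differentiated vs Undifferentiated and -0.26 (SE 0.11, edgeR adjusted p = 0.052) for Lysfree vs Undifferentiated. For Lysfree vs Differentiated it was -0.46 (SE 0.10, edgeR adjusted p = 6.3e-04), which is under a 2-fold change.

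Omd and Ogn, neighbours on chromosome 13, were lowest in differentiated cells, where Ogn was at 0.543% of its Undifferentiated mean and Omd was at the floor, and stood at 44.2% (Omd) and 15.6% (Ogn) of that mean without lysine. Omd encodes osteomodulin, a keratan sulfate protein known from bone and tooth. Its counts were 107, 115 and 90 in Undifferentiated, 0, 1 and 1 in Differentiated, and 64, 39 and 26 in Lysfree. Only the Differentiated libraries were at the floor, and the means were 2.35 ± 0.135, 0.0171 ± 0.0150 and 1.04 ± 0.524 FPKM. Set against 3 counts per library, the group mean of Omd was at least 30.6-fold lower in Differentiated than in Undifferentiated. It was at least 14.2-fold higher in Lysfree than in Differentiated. This second bound rests on the Lysfree mean, which Lysfree 1 raised, and Lysfree 2 and Lysfree 3 taken alone lie below it. Between Lysfree and Undifferentiated the log2 fold change was -1.14 (SE 0.26), and it stood at -0.86 without Lysfree 3.

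Ogn encodes osteoglycin, also called mimecan, a class III protein found in bone, vessel wall and muscle. Its counts were 18320, 18154 and 13916 in Undifferentiated, 76, 77 and 78 in Differentiated, and 3445, 2096 and 1824 in Lysfree. In FPKM these were 335, 323 and 339, then 1.91, 1.61 and 1.88, then 76.4, 42.8 and 36.6. Each group lay apart from the others. It was well above the floor everywhere, so its fold change is measured rather than bounded. The log2 fold change was -7.56 (SE 0.08) for Differentiated vs Undifferentiated, -2.63 (SE 0.15) for Lysfree vs Undifferentiated and 4.91 (SE 0.22) for Lysfree vs Differentiated.

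Nepn and Podn are low members of the family. Nepn encodes nephrocan, described as an inhibitor of TGF-beta signalling, and it alone of the 10 genes was at the floor in undifferentiated cells and above it in differentiated cells. Nepn had 0, 0 and 0 counts in Undifferentiated, 83, 99 and 114 in Differentiated, and 2, 0 and 5 in Lysfree. The Differentiated libraries, at 2.68, 2.66 and 3.53 FPKM, were far above all others. Against 3 counts per library, Nepn was at least 36.6-fold higher in Differentiated than in Undifferentiated. The Differentiated libraries together held 42.8 times as much as the Lysfree libraries per count sequenced, with a 95% interval of 20.5 to 107 that covers counting error only. This ratio rests on few Lysfree counts, as it was 98.4 (27.0 to 816) without Lysfree 3 and 28.4 (13.6 to 71.2) without Lysfree 2. No fold is given for Lysfree vs Undifferentiated, since only 7 counts stood against 0.

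Podn encodes podocan, a class V protein that binds collagen type I. It had 60, 38 and 26 counts in Undifferentiated, 19, 18 and 16 in Differentiated, and 14, 17 and 21 in Lysfree. The Undifferentiated libraries were all above the others, with Undifferentiated 1 the highest, and the other groups overlapped. Podn had a log2 fold change of -0.99 (SE 0.31) for Differentiated vs Undifferentiated. For Lysfree vs Undifferentiated it was -1.11 (SE 0.34, edgeR adjusted p = 0.0083), but without Undifferentiated 1 it was -0.81 (edgeR adjusted p = 0.12) and the call was lost. Between Lysfree and Differentiated, a difference was not detectable at this depth, with a log2 fold change of -0.13 (SE 0.36, edgeR adjusted p = 0.80).

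**Figure D3:**
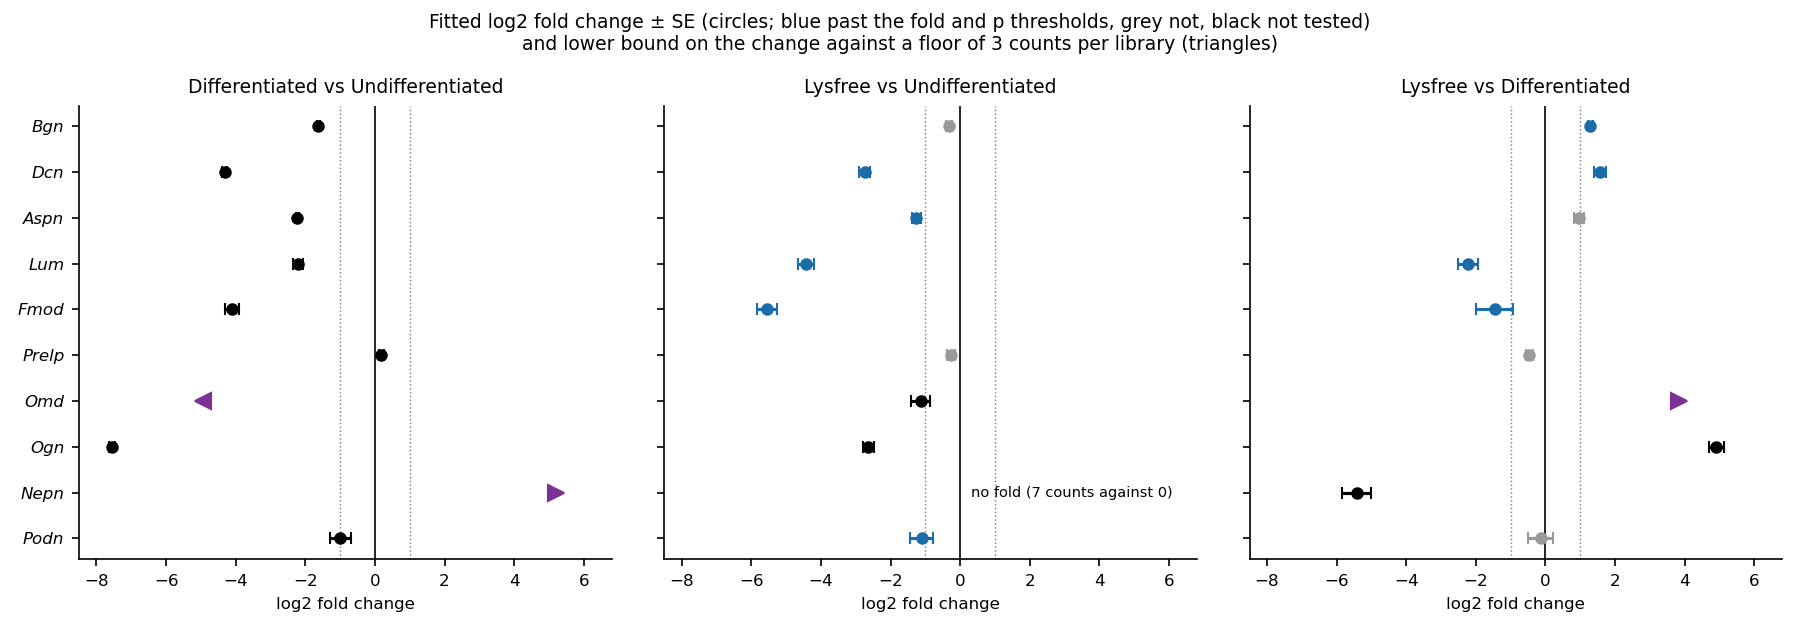
Fitted log2 fold change with its SE for the 10 SLRP genes in the 3 comparisons (circles, blue where called, grey where not, black where no test is given) and, for genes at the floor in a group, the lower bound against 3 counts per library (triangles). Dotted lines mark a 2-fold change. Lysfree vs Differentiated splits the genes, with Ogn at 4.91 and Dcn at 1.57 on the higher side and Lum at -2.23 and Fmod at -1.45 on the lower side.

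For Differentiated vs Undifferentiated, 8 of the 10 genes passed the call thresholds, Nepn upwards and 7 downwards, where 21.8% of all 24402 genes tested passed (10.4% higher and 11.4% lower). As the genes were chosen on this comparison, the count is a description only. In Lysfree vs Undifferentiated, 14.3% of 23994 genes were called, 5.52% higher and 8.76% lower. Of the 7 genes with a test, 5 were called lower there, namely Dcn, Lum, Fmod, Aspn and Podn, and none higher. In Lysfree vs Differentiated, 18.7% of 24130 genes were called, 8.14% higher and 10.5% lower, and of the 7 genes 2 were called higher (Bgn and Dcn) and 2 lower (Lum and Fmod). The median log2 fold change of all 10 genes was -2.22, -1.20 and 0.41 in the 3 comparisons in this order, and that of all genes tested was 0.02, -0.02 and -0.06. For the 7 genes without Ogn, Omd and Nepn it was -2.20, -1.26 and -0.13. The positive median in Lysfree vs Differentiated was thus not seen without the genes singled out for their changes. The medians of the 10 genes were the same with Omd and Nepn set to their bounds, or to 0 for Nepn in Lysfree vs Undifferentiated. Groups did not overlap for 9 of the 10 genes in each comparison, against 50.9%, 43.5% and 46.6% of all genes tested. This count includes Ogn, Omd and Nepn. Of the other 7 genes, 6 lay lower without overlap in Differentiated vs Undifferentiated and 7 in Lysfree vs Undifferentiated. In Lysfree vs Differentiated, 3 of them lay higher and 3 lower.

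Lysfree 1 was the highest Lysfree library for Ogn, Omd, Dcn, Aspn and Bgn, at 1.92, 2.15, 1.80, 1.70 and 1.27 times the mean FPKM of the other Lysfree libraries. For Fmod it was the lowest, at 0.34 times that mean. Without it, the log2 fold change for Lysfree vs Differentiated was 4.51 for Ogn, 1.21 for Dcn, 1.16 for Bgn and -2.24 for Lum, so these kept their direction and their size of at least 2-fold. For Lysfree vs Undifferentiated the values without it were -3.04 for Ogn, -1.62 for Omd, -3.11 for Dcn, -1.58 for Aspn and -0.47 for Bgn, each further from 0 than with it. What sets this library apart was not tested.

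Of the genes around the chromosome 13 run, Ecm2 was lower in both media, like Aspn, and Cenpp, Ippk and Nol8 were not. Ecm2, a family relative and the next plus-strand gene before Aspn, stood at 0.735, 0.173 and 0.109 FPKM in Undifferentiated, Differentiated and Lysfree. It fell by 2.12 on the log2 scale (SE 0.26) for Differentiated vs Undifferentiated and by 2.72 (SE 0.33, edgeR adjusted p = 2.9e-08) for Lysfree vs Undifferentiated. For Lysfree vs Differentiated, where the log2 fold changes of Aspn and Ogn were positive, that of Ecm2 was -0.61 (SE 0.44, edgeR adjusted p = 0.31), which did not pass the test, and the difference between Ecm2 and the run was not tested. Cenpp, which spans the run on the other strand, was at 0.827, 1.88 and 0.817 FPKM, so it was highest in the group where the run was lowest, and it had a log2 fold change of -1.14 (SE 0.22, edgeR adjusted p = 2.4e-04) for Lysfree vs Differentiated. Ippk, before Ecm2, was at 2.58, 5.09 and 3.38 FPKM, and Nol8, after Ogn, at 2.24, 3.88 and 6.73 FPKM. Nol8 was called higher in Lysfree vs Undifferentiated, with a log2 fold change of 1.63 (SE 0.13, edgeR adjusted p = 1.4e-12). On chromosome 10, Kera, the gene after Lum, stood at 1.06, 0.170 and 0.0409 FPKM, with a log2 fold change of -1.95 (SE 0.92, edgeR adjusted p = 0.11) for Lysfree vs Differentiated. Both neighbours of Nepn were also highest in Differentiated, Gopc at 4.54, 16.6 and 3.82 FPKM and Nus1 at 20.2, 96.8 and 21.2 FPKM, but unlike Nepn they were expressed in every group. Scp2, which overlaps Podn, and Slc1a7, next to Podn, were highest in Differentiated too, at 36.1, 157 and 39.2 FPKM and at 0.0274, 0.305 and 0.0629 FPKM.

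**Figure D4:**
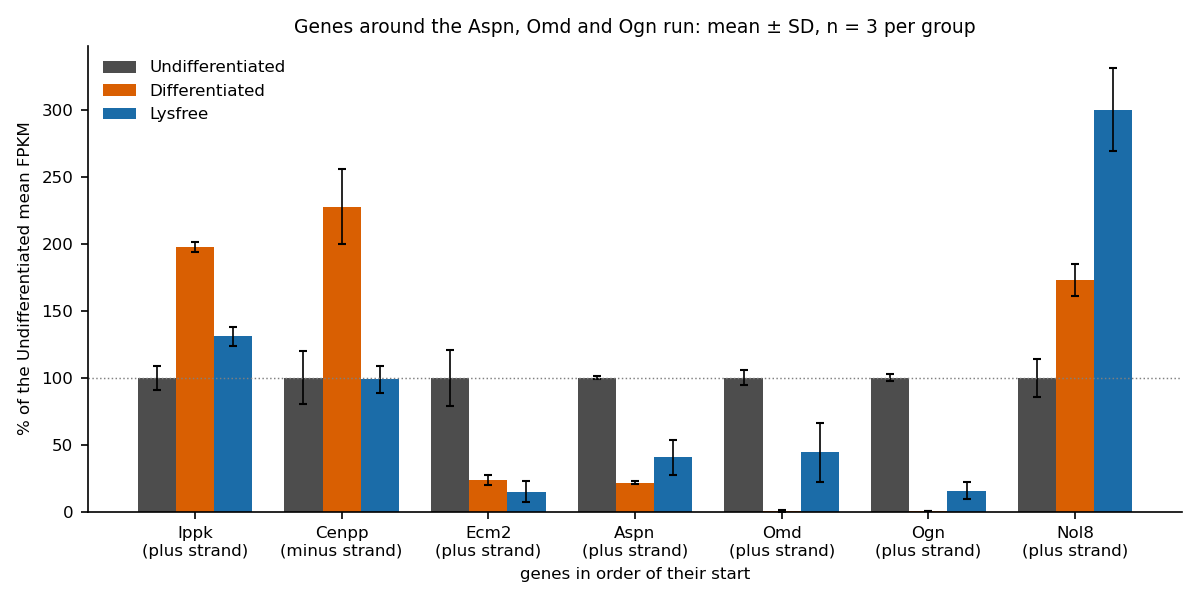
Mean FPKM of 7 genes on chromosome 13, ordered by start, as % of the Undifferentiated mean (linear axis from 0, bars for the SD, n = 3 per group). Ecm2, Aspn, Omd and Ogn lie below 100% in Differentiated and Lysfree, while Cenpp, which spans Aspn, Omd and Ogn on the minus strand, is highest in Differentiated. Ippk and Nol8 lie above 100% in both.

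Genes whose levels ran most like those of Ogn, Dcn and Nepn were sought by Pearson r over the 9 libraries on log2(FPKM + 1) among 11623 genes with a mean of at least 1 FPKM. The 9 points form 3 groups, so r mostly reflects the group means and is a description. Closest to Ogn were Antxr1, a collagen-binding receptor, with r = 0.9995, Fstl1, a secreted glycoprotein, with r = 0.999, and Mfhas1 with r = 0.999. Within the family, the r with Ogn was 0.987 for Omd, 0.982 for Bgn, 0.959 for Aspn and 0.943 for Dcn. It was 0.743 for Fmod, 0.606 for Podn and 0.524 for Lum, and below 0 for Prelp (-0.482) and Nepn (-0.926). Closest to Dcn were Pros1, Tlr2 and 2900097C17Rik, each with r = 0.996. Closest to Nepn were Arhgef37 with r = 0.998, Pbk with r = 0.997 and Rab3ip with r = 0.997, of which Arhgef37 was likewise at 0 FPKM in Undifferentiated, 3.00 in Differentiated and 0.0161 in Lysfree.

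The remaining family members were low except Tsku. The counts of called genes in this and the other lists stand beside the shares over all genes tested, 10.4% higher and 11.4% lower for Differentiated vs Undifferentiated, 5.52% and 8.76% for Lysfree vs Undifferentiated, and 8.14% and 10.5% for Lysfree vs Differentiated. Of the 9 others tested, 1 was called higher and 4 lower in Differentiated vs Undifferentiated, 4 lower in Lysfree vs Undifferentiated and 2 lower in Lysfree vs Differentiated. Tsku, which encodes tsukushi, a class IV protein, stood at 21.1, 21.3 and 23.2 FPKM and was not called in any comparison. Podnl1, the closest relative of Podn, was at 1.31, 0.313 and 0.0591 FPKM, and Chad, which encodes chondroadherin, at 0.553, 1.83 and 0.518. Both were called lower in Lysfree vs Differentiated. In this and the other lists, some calls rest on few counts. Epyc, B3gnt7, Col2a1, Ccn2 and Gpc3 were called lower in Differentiated vs Undifferentiated. They had at most 16, 5, 7, 10 and 17 counts in any Undifferentiated library and at most 1 in any Differentiated library.

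Of 24 tested genes for chondroitin and dermatan sulfate synthesis, 8 were lower (33.3%) and 1 higher in Differentiated vs Undifferentiated. In Lysfree vs Undifferentiated 3 were lower (12.5%) and none higher, near the share over all genes. In Lysfree vs Differentiated 4 of 23 were higher and 4 lower (17.4% each). Of the 4 lower, Chst13 and Chst15 were hardly expressed, with at most 4 and 5 counts in any Differentiated library. Csgalnact1, which starts the chondroitin chain, stood at 16.3, 2.23 and 19.4 FPKM in Undifferentiated, Differentiated and Lysfree, with a log2 fold change of 3.18 (SE 0.14, edgeR adjusted p = 1.1e-13) for Lysfree vs Differentiated. Csgalnact2, of the same function, and Dse, the epimerase that makes dermatan sulfate, rose by 1.22 and 1.44 on the log2 scale. Chst11, a chondroitin 4-O-sulfotransferase, went the other way, at 18.7, 42.4 and 11 FPKM. For keratan sulfate, carried by Lum, Fmod and Omd, 3 of 6 genes were higher and 1 lower in Lysfree vs Differentiated, after 3 lower and 1 higher in Differentiated vs Undifferentiated and 2 lower in Lysfree vs Undifferentiated. The sulfotransferase Chst2 stood at 11.7, 1.43 and 4.13 FPKM and Chst1, which sulfates galactose of the chain, at 9.02, 27.3 and 11.4, while the galactosyltransferases B4galt4 and B4galt1 rose by 1.79 and 1.00 in Lysfree vs Differentiated.

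Of 14 collagens to which SLRPs bind or that join their fibrils, 8 were lower and 1 higher in Differentiated vs Undifferentiated, 8 were lower in Lysfree vs Undifferentiated, and 4 were higher and 4 lower in Lysfree vs Differentiated. Col6a3, a chain of the beaded collagen VI that binds Dcn and Bgn, was at 287, 601 and 103 FPKM, and its log2 fold change for Lysfree vs Differentiated was -2.48 (SE 0.08, edgeR adjusted p = 3.95e-16). Col6a1 and Col5a3 were also lower, by -1.20 and -2.01 on the log2 scale, and so was Col6a2. Higher were Col12a1, a fibril-associated collagen, at 29.5, 5.19 and 12.1 FPKM, together with Col1a2, Col11a1 and Col14a1.

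Among the growth factors held by SLRPs, 4 of 8 tested were lower in Differentiated vs Undifferentiated and 2 in Lysfree vs Undifferentiated, and 4 were higher and 1 lower in Lysfree vs Differentiated. Ccn4, a WNT-induced matrix protein that binds Dcn and Bgn, was at 22.6, 2.51 and 30.3 FPKM, with a log2 fold change of 3.66 (SE 0.12, edgeR adjusted p = 1.5e-15) for Lysfree vs Differentiated. Pdgfa and Tgfb3 rose by 1.69 and 1.15 in that comparison, and Fgf2 fell by 1.69. Ccn2 was called higher as well, but from 0 counts in Differentiated to at most 6 per library in Lysfree. Among the receptors, 5 of 9 were lower in Differentiated vs Undifferentiated, 3 of 10 were lower in Lysfree vs Undifferentiated, and 3 were higher and 1 lower in Lysfree vs Differentiated. Lrp1, an endocytic receptor for Dcn, stood at 77.7, 26.5 and 81.4 FPKM, and rose by 1.68 on the log2 scale (SE 0.11, edgeR adjusted p = 3.0e-11). The Toll-like receptors Tlr2 and Tlr4, which bind Bgn, rose by 1.04 and 1.28, and Met, bound by Dcn, fell by 1.28.

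Most proteases that cleave SLRPs were called lower in both media than in undifferentiated cells, 8 of 8 tested in Differentiated and 7 of 9 in Lysfree. The others in Lysfree vs Undifferentiated were Adamts5, with a log2 fold change of -0.75, and Mmp12, which had at most 1 count in any library, and Mmp7 was at 0 counts in every library. In Lysfree vs Differentiated 3 were higher and 2 lower. Mmp2, a gelatinase that cuts Dcn, was at 2009, 123 and 394 FPKM, and its activator Mmp14 at 377, 35 and 139 FPKM, with log2 fold changes of 1.74 and 2.05 for Lysfree vs Differentiated. Adamts5 rose too, at 13.3, 2.54 and 7.67 FPKM. Mmp9 and Mmp3 had their lowest levels in Lysfree, like Lum and Fmod, at 9.63, 0.867 and 0.125 FPKM and 10.9, 2.24 and 0.588 FPKM. Of the other proteoglycans, 5 of 19 were lower and 1 higher in Differentiated vs Undifferentiated, 1 was higher and 1 lower in Lysfree vs Undifferentiated, and 3 of 17 were higher and 2 lower in Lysfree vs Differentiated. The shares for Lysfree vs Undifferentiated, 5.26% each way, were no higher than those over all genes. Vcan, which encodes the large chondroitin sulfate proteoglycan versican, was at 54.9, 50.6 and 145 FPKM and rose against both other groups, by 1.45 and 1.58 on the log2 scale. Sdc2 and Gpc1, which carry heparan sulfate at the cell surface, rose by 1.54 and 1.11 in Lysfree vs Differentiated, while Sdc4 fell by 1.29 and Hspg2, the perlecan gene, was lower as well.

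**Figure D5:**
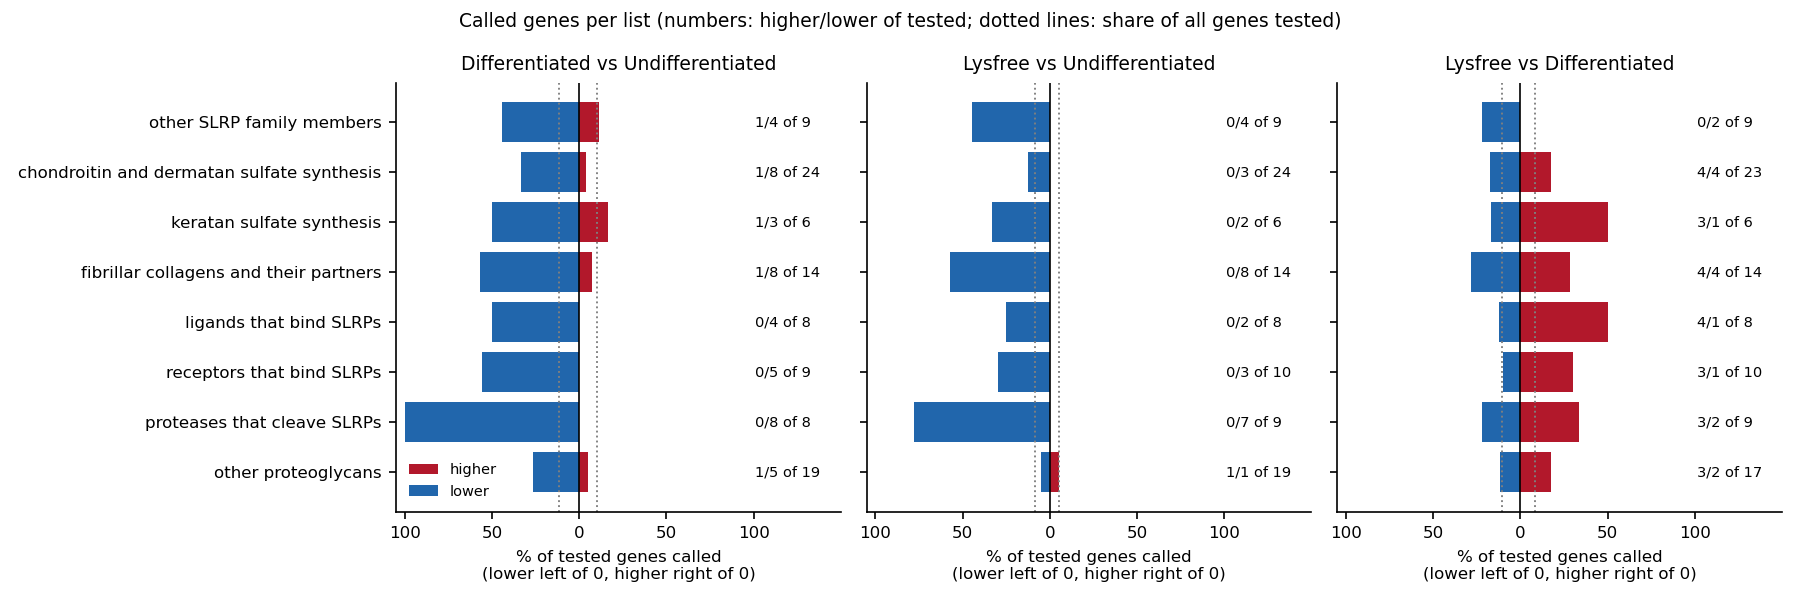
Share of tested genes called higher (right of 0) and lower (left of 0), in %, for 8 lists of genes related to SLRPs in the 3 comparisons, with the counts beside each bar and the share of all genes tested as dotted lines. In Differentiated vs Undifferentiated all 8 proteases tested were lower, and in Lysfree vs Differentiated the collagens split 4 to 4.

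Markers of fibroblasts and adipocytes also differed between the groups. Of the 8 fibroblast and preadipocyte markers, 6 were called lower in Differentiated vs Undifferentiated, 4 lower in Lysfree vs Undifferentiated and 3 higher in Lysfree vs Differentiated. They did not share an order. Pdgfra, at 43.7, 6.94 and 12.9 FPKM, and Dlk1, at 269.9, 30.3 and 65.2 FPKM, were called lower in both media than in Undifferentiated. Dlk1 was also called higher in Lysfree than in Differentiated, by 1.17 on the log2 scale (SE 0.09, edgeR adjusted p = 3.9e-10). Pdgfrb, at 84.4, 15.2 and 54.3 FPKM, and Thy1, at 70.4, 27.8 and 89.1 FPKM, were called higher in Lysfree than in Differentiated and were not called in Lysfree vs Undifferentiated. Vim was at 602, 382 and 607 FPKM and not called in any comparison, while Col1a1 was called lower in both media and had a log2 fold change of -0.08 for Lysfree vs Differentiated.

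All 8 adipocyte markers were called higher in Differentiated vs Undifferentiated and lower in Lysfree vs Differentiated, and 3 were called lower in Lysfree vs Undifferentiated. Adipoq was at 57.8, 933 and 4.18 FPKM and Cidec at 36.7, 2452 and 12 FPKM. Fabp4 stood at 44.1, 2445 and 36.7 FPKM and Plin1 at 9.19, 197 and 4.88 FPKM. Of the 7 cartilage and bone markers, 4 were called lower in Differentiated vs Undifferentiated, 2 lower in Lysfree vs Undifferentiated and 1 higher in Lysfree vs Differentiated. Sox9 was at 28.6, 8.65 and 27.9 FPKM. Runx2, at 5.03, 1.67 and 2.14 FPKM, and Bglap, at 0.608, 0.139 and 0.0566 FPKM, were called lower in both media. The calls of Bglap rest on few counts, at most 11 per library in Undifferentiated, 4 in Differentiated and 2 in Lysfree.

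Among markers of other cells, Ptprc, Adgre1 and Itgam of leukocytes, Kdr of endothelium, Epcam and Cdh1 of epithelium, Myod1 and Myog of muscle and Acan of cartilage were at the floor in every group. Others of these lists were above it in some or all groups. Cd68, of macrophages, was at 1.65, 4.12 and 4.40 FPKM and called higher in both media than in Undifferentiated. Csf1r, at 0.120, 0.0340 and 0.00352 FPKM, was called lower in both media. Its counts were few, at most 13 per library in Undifferentiated, 4 in Differentiated and 1 in Lysfree. The epithelial keratins Krt8 and Krt18 were called higher in Differentiated, at 0.468 and 0.947 FPKM, than in either other group, and both had 0 counts in Lysfree. Tek, of endothelium, was at 0.0481, 0.0165 and 0.156 FPKM and called higher in Lysfree than in either other group. Its counts were few too, at most 6 per library in Undifferentiated, 2 in Differentiated and 14 in Lysfree. The muscle genes Des, at 2.6, 3.32 and 1.07 FPKM, and Myh11, at 0.0453, 0.279 and 0.0229 FPKM, were called lower in Lysfree vs Differentiated. The part of such shifts in the results for SLRPs was not tested.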

How the data were processed

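The authors cleaned the reads and mapped them to mm10, and the submitters' processing notes name HISAT2 2.0.5 and featureCounts 1.5.0-p3. The authors deposited raw counts per gene, not normalized, and FPKM, which in each library were the counts per kilobase and library total multiplied by a constant. The constant was 0.988 to 0.994 in Undifferentiated, 1.03 to 1.04 in Differentiated and 0.932 to 0.953 in Lysfree. Comparisons of FPKM between groups include this difference. The annotation release and strand setting are not given in the sources used here. Groups came from the sample labels. Counts were tested with edgeR 4.0.16 in R 4.3.3 (quasi-likelihood test, TMM normalization, Benjamini-Hochberg adjustment), separately on the 6 libraries of each comparison, leaving out genes at 0 in all 6. The code was tested on simulated data. Alternatives were other normalizations and filters, DESeq2 1.42.0, limma 3.58.1 on log2(FPKM + 1) and log2(FPKM + 0.1), all 9 libraries in a single fit, a replicate block and leaving out each library. The members and lists were chosen with earlier results of these data known. Named from each list were at most 4 genes, those with the largest log2 fold change in size for Lysfree vs Differentiated among genes with a mean of at least 1 FPKM, plus genes next to a member. Chad, Podnl1, Epyc, Chst13, Chst15, B3gnt7, Col1a2, Col2a1, Col6a2, Col11a1, Col14a1, Ccn2, Adamts5, Mmp7, Mmp12, Gpc3, Hspg2 and Ippk were named after their values were seen. So were the markers other than Pdgfra, Pdgfrb, Thy1, Dlk1, Adipoq, Cidec, Fabp4, Plin1, Cd68, Des, Sox9 and Runx2. Ccn2 and Ccn4 are Ctgf and Wisp1 in the tables. Same-numbered replicates did not deviate together (r = -0.0844 to 0.115 over 9 pairs).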

Additional observations from a re-analysis of the deposited data

How the results depend on the processing

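No log2 fold change of an SLRP gene changed direction under any alternative tried. Of 442 alternative values for single genes, 418 stayed on their side of the thresholds, 14 dropped below and 10 went above. These values, and the counts of SLRP genes that follow, include Ogn, Omd and Nepn and the comparison on which the genes were chosen. They describe the fits only and lend no support to the choice. The number of genes called, 5329 for Differentiated vs Undifferentiated, 3426 for Lysfree vs Undifferentiated and 4507 for Lysfree vs Differentiated, became 3488, 2244 and 2891 with at least 10 counts in every library, 2726, 1474 and 2198 with limma on log2(FPKM + 1), and 11260, 8428 and 9280 with no fold change threshold. Of the 7 SLRP genes called in Lysfree vs Differentiated, 4 were called with at least 10 counts in every library, where genes near the floor are not tested, and 4 with limma on log2(FPKM + 1), which shrinks low genes. Leaving out each library gave 5037 to 5161, 3093 to 3448 and 4120 to 4485 called genes, and 8 to 9, 6 to 7 and 6 to 8 SLRP genes. The replicate numbers did not pair the samples, and with them as a replicate block 4837, 3179 and 4173 genes and 8, 7 and 6 SLRP genes were called. DESeq2 called 4847, 3137 and 4190 genes and 8, 7 and 6 SLRP genes. Depth limits what can be said of Omd in Differentiated, Nepn outside Differentiated, Fmod in Lysfree and Podn.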
